A study of Mus musculus with 16 samples.

Results

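The expression of 6 genes of renal phosphate handling was followed in mouse kidney: the sodium-phosphate cotransporters Slc34a1, Slc34a3, Slc20a1 and Slc20a2, the phosphate exporter Xpr1 and the parathyroid hormone receptor Pth1r. They were chosen by name, and all 6 were among the 30277 genes of the expression table. RNA came from 16 whole kidneys of C57BL/6J mice aged 46 to 59 days, with controls and KlKl animals of each sex forming 4 groups of 4. KlKl animals were homozygous for a Klotho mutation that lowers the Klotho transcript and were labelled as having renal failure. Controls had healthy kidneys per the labels. All 4 female controls and male controls 1 and 2 carried a single copy of the mutation (+/Kl), and male controls 3 and 4 were wild type (+/+). Replicates 1 and 2 of each group had names beginning with CFK, and replicates 3 and 4 names beginning with CFdk, so in the male controls genotype and name series cannot be told apart.

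As background, phosphate is reclaimed from the filtrate by the proximal tubule. Slc34a1 (NaPi-IIa) and Slc34a3 (NaPi-IIc) carry it across the brush border together with sodium, and Slc20a2 (Pit2) lies in the same membrane. Slc20a1 (Pit1) is a widely expressed sodium-phosphate cotransporter, and Xpr1 carries phosphate out of cells. Pth1r is the receptor of parathyroid hormone, which withdraws Slc34a proteins from the brush border, as does Fgf23 with its coreceptor Klotho. That control acts largely on protein in the membrane, which transcript levels do not measure.

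Parts of the regulatory sequence are shown first because 3 of the 6 transcripts, Pth1r, Xpr1 and Slc20a2, were higher in males in both genotypes. Such calls are common in the values as deposited. Of all genes 44.3% were called higher in male controls and 50.9% in male KlKl, or 32.5% and 37.4% in a fit with a lower filter. After the scaling described below, Pth1r was not called between KlKl sexes (limma adjusted p = 0.0561). RefSeq windows of 300 bases around the transcription start, mostly upstream (build GRCm38.p6), were found for 5 of the 6 genes, in 8 windows; Slc20a2 had none in the table. The windows for Xpr1 (chr1:155417395-155417694, minus strand) and for the first of 3 Pth1r starts (chr9:110747096-110747395, minus strand) are those of genes that were higher in males. The windows for Slc34a1 (chr13:55399398-55399697, plus strand) and Slc34a3 (chr2:25234185-25234484, minus strand) stand beside them as those of the brush-border pair. Capitals mark every match on either strand to 5 motifs. These were TGTTCT, a core element of androgen and glucocorticoid receptor sites, AGGTCA, bound by many other nuclear receptors, the TATA box as TATAAA, the CCAAT box, and the E-box CACGTG; adjoining matches may share letters.
Xpr1: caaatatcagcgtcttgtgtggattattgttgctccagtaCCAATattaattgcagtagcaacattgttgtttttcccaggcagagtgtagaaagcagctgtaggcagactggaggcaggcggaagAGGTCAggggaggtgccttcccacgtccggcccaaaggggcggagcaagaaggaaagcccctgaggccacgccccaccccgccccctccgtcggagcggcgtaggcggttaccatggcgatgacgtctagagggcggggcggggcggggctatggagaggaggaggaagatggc
Pth1r: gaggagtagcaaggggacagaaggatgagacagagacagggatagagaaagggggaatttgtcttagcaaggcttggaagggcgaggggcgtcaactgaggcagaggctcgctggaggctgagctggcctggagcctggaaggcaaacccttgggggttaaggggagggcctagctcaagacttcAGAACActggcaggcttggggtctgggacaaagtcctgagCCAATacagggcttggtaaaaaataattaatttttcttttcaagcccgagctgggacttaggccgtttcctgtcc
Slc34a1: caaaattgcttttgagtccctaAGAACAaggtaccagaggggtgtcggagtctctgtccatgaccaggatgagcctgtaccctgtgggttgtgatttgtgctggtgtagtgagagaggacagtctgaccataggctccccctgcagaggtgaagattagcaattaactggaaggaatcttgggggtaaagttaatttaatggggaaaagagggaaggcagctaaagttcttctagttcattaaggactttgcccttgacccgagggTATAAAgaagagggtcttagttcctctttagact
Slc34a3: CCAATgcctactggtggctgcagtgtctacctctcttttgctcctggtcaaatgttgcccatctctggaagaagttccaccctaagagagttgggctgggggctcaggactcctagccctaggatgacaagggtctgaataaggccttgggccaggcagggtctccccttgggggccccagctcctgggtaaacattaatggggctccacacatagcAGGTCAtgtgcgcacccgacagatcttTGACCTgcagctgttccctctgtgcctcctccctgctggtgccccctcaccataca
The Pth1r window held 1 TGTTCT match and 1 CCAAT match, while the other 2 Pth1r windows (chr9:110743637-110743936 and chr9:110742561-110742860) held 0 matches to the 5 motifs. The Xpr1 window held 0 TGTTCT, 1 AGGTCA and 1 CCAAT match. Slc34a1 had 1 TGTTCT and 1 TATAAA match, and Slc34a3 had 2 AGGTCA matches and 1 CCAAT match. Of the 2 Slc20a1 windows, not printed, 1 held a TGTTCT and an AGGTCA match (chr2:129206846-129207145), and the other held 2 E-boxes and 1 match to each of the remaining motifs but TGTTCT. Of 32851 windows of the same length, 19% held TGTTCT and 16.3% held AGGTCA on either strand. The TATAAA match was in 13.6% of them, the CCAAT box in 37.4% and the E-box in 7.15%. These are letter matches in a window and not binding sites.

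The values are TPM, a length-scaled expression unit, as deposited; with gene length taken over exons and introns, 81.2% of values under 20 reads came out whole within 0.1. On that reading long genes receive low values: Slc34a3 spans 5.467 kb (chr2:25118910-25124377, mm39), Slc20a1 12.85 kb (chr2:129040684-129053537) and Slc34a1 17.41 kb (chr13:55546000-55563406). Pth1r spans 25.06 kb (chr9:110551153-110576214), Slc20a2 92.83 kb (chr8:22966804-23059629) and Xpr1 141.7 kb (chr1:155151447-155293162). Total reads recovered from the values were 13030078 to 20109511 in males and 8209572 to 14505402 in females, and each gene had at least 210 reads in every library. For Slc20a2, with the fewest, counting alone then leaves a 95% interval of about ± 13.5%, and for Slc34a1, with at least 13979 reads, ± 1.7%. Mitochondrial genes took 30.7% to 47.5% of a library's TPM, and ribosomal RNA 15.2% in female control 3 against 3.32% to 6.18% elsewhere. The library names carry sample numbers S17 to S24 once among the males and once among the females. The sequencing run is not given in the sources used here. If males and females were run apart, run and sex cannot be told apart. The part of run or of read depth in any sex difference was not tested.

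The genotype labels were checked on Kl itself. Kl was 7.82 to 11.7 TPM in male controls but 0.258 to 1.49 TPM in male KlKl, and 2.04 to 5.73 TPM in female controls and 0.0728 to 0.222 TPM in female KlKl. Neither sex overlapped between genotypes. Early proximal tubule markers, summed over 7 genes, stood at 75.5 to 226 TPM in all libraries, so the labelled tissue carried its defining transcripts. Of the parathyroid markers, Pth and Gcm2 had no entry in the table used here.

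Levels between the 6 genes were compared only per kilobase of mRNA, as reads per kb of the longest coding transcript for every 1000000 reads of the library. On that scale Slc34a1 was the most abundant, with group medians of 694 to 864. Pth1r followed at 130 to 204, and Slc34a3 at 19.3 to 29.8. Slc20a1, Slc20a2 and Xpr1 lay close together: group medians were 9.78 to 11.6 for Slc20a1, 7.19 to 12.1 for Slc20a2 and 6.51 to 11.4 for Xpr1. In females every library had Slc20a1 (9.70 to 12.1) above the highest Slc20a2 (5.43 to 7.91) and Xpr1 (6.13 to 7.62), which overlapped each other. In males all 3 overlapped, so their order was not separated from the spread between libraries there. Among sodium-phosphate cotransporter transcripts per kb, Slc34a1 exceeded Slc34a3 by 22.7 to 45.7 times within single libraries.

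Slc34a1, the main brush-border cotransporter, was 174, 136, 195 and 178 TPM in the 4 male controls, against 158, 160, 181 and 138 TPM in male KlKl. Female controls had 131, 133, 67.0 and 109 TPM, and female KlKl 140, 127, 133 and 127 TPM. The male genotypes overlapped, the female control values were spread most widely, and female control 3 was the lowest of all 16. Slc34a3, the second brush-border cotransporter, was 6.74, 6.58, 8.71 and 7.77 TPM in male controls, against 9.49, 7.87, 6.93 and 6.57 TPM in male KlKl. In females it was 8.43, 8.70, 3.72 and 8.39 TPM in controls and 9.49, 7.77, 7.95 and 7.85 TPM in KlKl. Its 4 groups overlapped on the deposited scale, and the same female control 3 stood lowest.

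Slc20a1 was 2.24, 1.89, 2.20 and 2.89 TPM in male controls, against 3.40, 2.66, 3.19 and 2.56 TPM in male KlKl. Female controls had 1.81, 2.00, 2.14 and 2.04 TPM and female KlKl 2.32, 2.12, 2.22 and 1.86 TPM. Every male KlKl library was above every female KlKl library, while controls of the 2 sexes overlapped. Slc20a2 was 0.340, 0.359, 0.466 and 0.469 TPM in male controls, against 0.452, 0.431, 0.482 and 0.377 TPM in male KlKl. It was 0.219, 0.199, 0.189 and 0.139 TPM in female controls and 0.211, 0.209, 0.173 and 0.191 TPM in female KlKl. The 8 male libraries all lay above the 8 female libraries, and the genotypes overlapped in both sexes. How many of all genes part the sexes in this way was not counted. In these values limma called 44.3% of all genes higher in male controls and 50.9% in male KlKl. With the lower filter the shares were 32.5% and 37.4%.

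Xpr1, the exporter, was 0.475, 0.495, 0.553 and 0.590 TPM in male controls, against 0.645, 0.604, 0.529 and 0.537 TPM in male KlKl. Females had 0.258, 0.240, 0.222 and 0.234 TPM as controls and 0.272, 0.254, 0.286 and 0.277 TPM as KlKl. Again the sexes did not overlap. Pth1r, the hormone receptor, was 17.1, 13.8, 18.6 and 16.2 TPM in male controls, against 19.1, 19.2, 18.6 and 15.2 TPM in male KlKl. It was 8.41, 8.85, 8.76 and 6.82 TPM in female controls and 10.8, 10.0, 11.0 and 10.4 TPM in female KlKl. Males were above females throughout, and the female KlKl libraries were all above the female controls on the deposited scale, though not after the scaling described below. For Xpr1 and Pth1r too, the share of all genes that part the groups in this way was not counted.

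**Figure D1:**
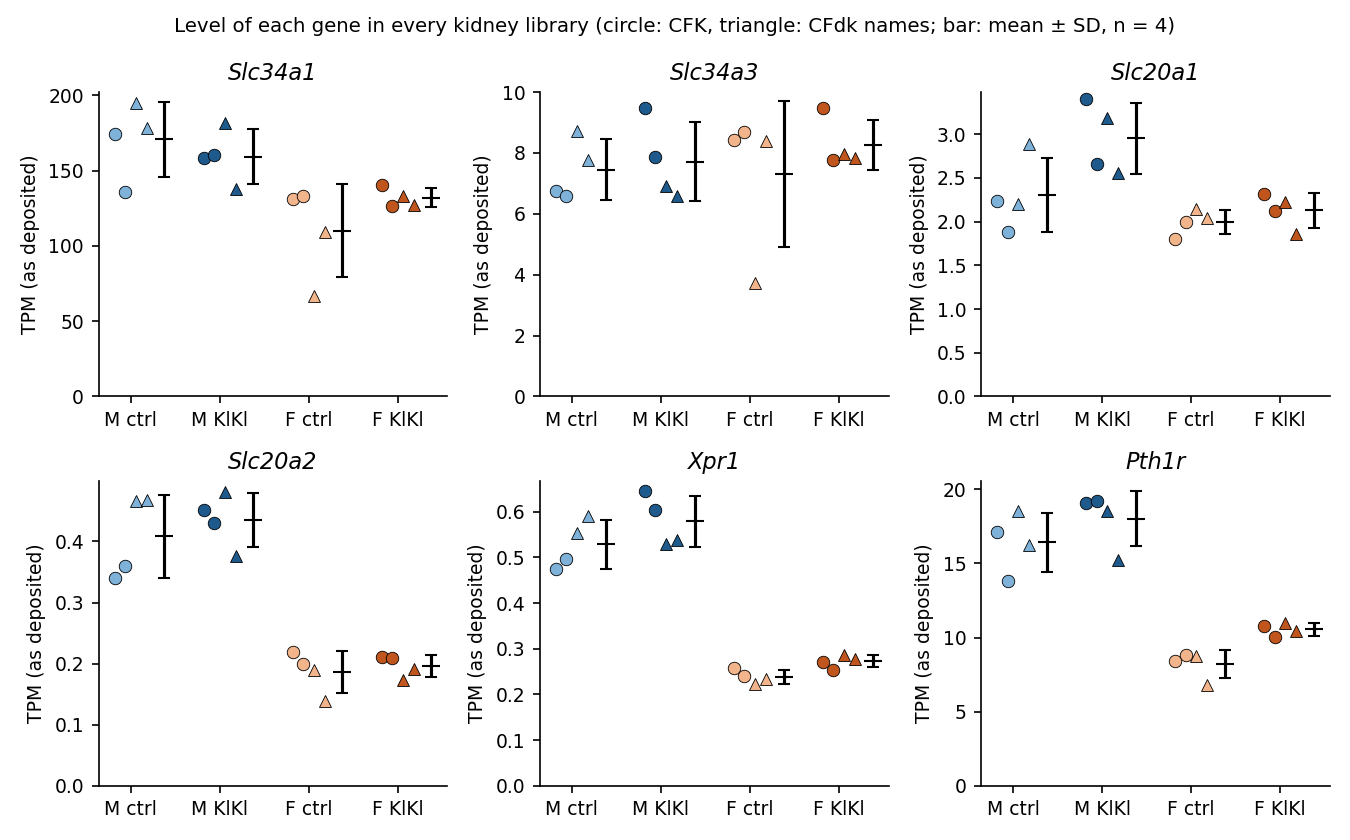
TPM as deposited (vertical axes, each starting at 0) of the 6 genes in the 16 kidney libraries, by group (M male, F female, ctrl control); circles are CFK and triangles CFdk names, and bars are mean ± SD, n = 4. Slc20a2, Xpr1 and Pth1r lie higher in every male library than in any female library, with Pth1r at 13.8 to 19.2 TPM in males and 6.82 to 11.0 TPM in females. Such separation was not counted over all genes.

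The first comparison asked whether these transcripts differed between KlKl mice and controls. Renal failure and the lowered Klotho transcript come together in KlKl mice and cannot be told apart here. None of the 6 genes passed the test in either sex. In males the log2 difference, KlKl minus control, was -0.09 ± 0.19 (SE; limma adjusted p = 0.739) for Slc34a1 and 0.04 ± 0.20 (adjusted p = 0.891) for Slc34a3. It was 0.26 ± 0.10 (adjusted p = 0.219) for Slc20a1, with 28.1% more TPM on average, and 0.13 ± 0.12 (adjusted p = 0.467) for Pth1r. Slc20a2 and Xpr1 lay below the TPM filter of the fit and were read from a second limma fit with a filter and pseudocount of 0.1 TPM: 0.08 ± 0.12 (adjusted p = 0.701) and 0.11 ± 0.09 (adjusted p = 0.485). The background was small, with 8 of 8059 genes called, or 0.0993%, and 0.0219% in the second fit, so a count of 0 of 6 is near that of all genes. At an unadjusted p under 0.05, 19.9% of genes passed in males, and of the 6 only Slc20a1 did in these fits.

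In females the differences were 0.31 ± 0.19 (limma adjusted p = 0.727) for Slc34a1, 0.21 ± 0.20 (adjusted p = 0.740) for Slc34a3 and 0.06 ± 0.10 (adjusted p = 0.822) for Slc20a1. Without female control 3 the Slc34a1 value dropped to 0.087 (adjusted p = 0.979) and Slc34a3 turned to -0.041. Slc20a2 stood at 0.05 ± 0.12 (adjusted p = 0.902) and Xpr1 at 0.14 ± 0.09 (adjusted p = 0.745). Pth1r gave the largest female value of the 6, 0.33 ± 0.12 (adjusted p = 0.727, unadjusted p = 0.0126), with a mean of 10.6 ± 0.435 TPM in KlKl and 8.21 ± 0.949 TPM in controls (SD, n = 4). Among all genes 1 of 8059, or 0.0124%, was called in females, and 0.0109% in the second fit; 4.67% passed at an unadjusted p under 0.05. The 95% interval for Slc34a1 in deposited TPM ran from -0.50 to 0.31 in males and from -0.10 to 0.71 in females. Differences within those bounds remain possible on that scale. After the scaling described below, the male 95% interval was wholly negative, from -0.659 to -0.033 (limma unadjusted p = 0.0326). It did not pass after adjustment, and 4.89% of all genes had an unadjusted p under 0.05 in that scaled male contrast. The scaled female interval for Slc34a1 ran from -0.18 to 0.44.

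The effect averaged over the sexes was 0.16 ± 0.07 (limma adjusted p = 0.174) for Slc20a1 and 0.23 ± 0.08 (adjusted p = 0.167) for Pth1r; 0.0372% of all genes were called. Median-ratio scaling, described next, took these averages to 0.0052 and 0.031. The male effect minus the female effect was -0.40 ± 0.27 for Slc34a1 and -0.20 ± 0.17 for Pth1r, both with a limma adjusted p of 0.9997. Without female control 3 the Slc34a1 value was -0.18. In that contrast 0% of genes were called by limma on TPM, where 175 of 8059 passed at an unadjusted p under 0.05, and 0 by limma voom on recovered reads, where 418 of 17480 did. The 6 genes therefore gave no call for a genotype effect that differed between the sexes.

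A shift common to most genes bears on these directions. Over the 8059 genes, the median log2 difference in deposited TPM was 0.18 between male KlKl and controls, 0.105 between the female groups, 0.257 between control sexes and 0.332 between KlKl sexes. Dividing each library by its median ratio to the others removed the shift. Then the male Slc34a1 level was 159 ± 17.8 in controls and 125 ± 9.70 in KlKl (scaled TPM, SD, n = 4), 21.6% lower on average and without overlap. The log2 difference was -0.35 ± 0.15 with a limma adjusted p of 1.0, against -0.09 unscaled, so it did not pass. In scaled values the male differences of Slc34a3 (-0.18), Slc20a2 (-0.12), Xpr1 (-0.10) and Pth1r (-0.11) turned below 0, and none passed. In females the scaled Pth1r level was 9.10 to 12.2 in controls and 10.9 to 12.6 in KlKl, so the groups overlapped, and the log2 difference was 0.17 in place of 0.33. The scaled female Slc34a1 difference was 0.13 in place of 0.31. The effect averaged over the sexes was 0.031 for Pth1r (limma adjusted p = 0.951; 0.014 with voom) and 0.0052 for Slc20a1 (adjusted p = 0.990).

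Within the name series the male genotype differences parted. The log2 ratio of mean TPM, KlKl over control, was 0.38 within CFK and -0.29 within CFdk for Slc34a3, 0.36 and -0.10 for Xpr1, 0.33 and -0.12 for Slc20a2, and 0.31 and -0.041 for Pth1r. Slc20a1 gave 0.55 and 0.18, above 0 in both series, and Slc34a1 0.040 and -0.23. The CFdk male controls were the wild-type pair, so series and control genotype cannot be told apart here. In scaled values the ratios of Slc34a3, Slc20a2, Xpr1, Pth1r and Slc34a1 were below 0 in both series, at -0.35 and -0.35 for Slc34a1. In females Slc34a1 gave 0.016 within CFK and 0.56 within CFdk, the latter with female control 3, and Pth1r 0.27 and 0.46. With name series as a covariate none of the 6 genes was called in either sex.

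Ratios between 2 genes of 1 library do not depend on the scaling. Slc34a1 over Slc20a1, per kb of mRNA, was 69.5 to 99.7 in male controls but 52.4 to 68.0 in male KlKl, without overlap. In females it was 35.3 to 81.8 in controls and 67.3 to 77.4 in KlKl, and these overlapped. Slc34a1 over Pth1r was 3.939 to 4.41 in male controls beside 3.33 to 3.933 in male KlKl, apart by a narrow gap only. It was 3.08 to 6.45 in female controls and 4.87 to 5.23 in female KlKl. Slc34a1 over Slc20a2 also parted narrowly in males, at 63.328 to 85.9 in controls beside 58.8 to 63.265 in KlKl. Slc34a1 over Xpr1 overlapped there, at 63.2 to 84.7 beside 56.6 to 79.3. How many gene pairs of the table part in this way was not counted. Slc34a1 over Slc34a3 was 35.9 to 45.1 in male controls beside 29.1 to 45.7 in male KlKl, against 22.7 to 31.4 and 25.8 to 29.2 in the female groups. Slc20a1 over Slc20a2 was 0.705 to 0.980 and 0.919 to 1.12 in the male groups, and 1.23 to 2.19 and 1.45 to 1.91 in the female groups, so no male library reached a female one. These pairs were set side by side after the levels were known and carry no test.

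**Figure D2:**
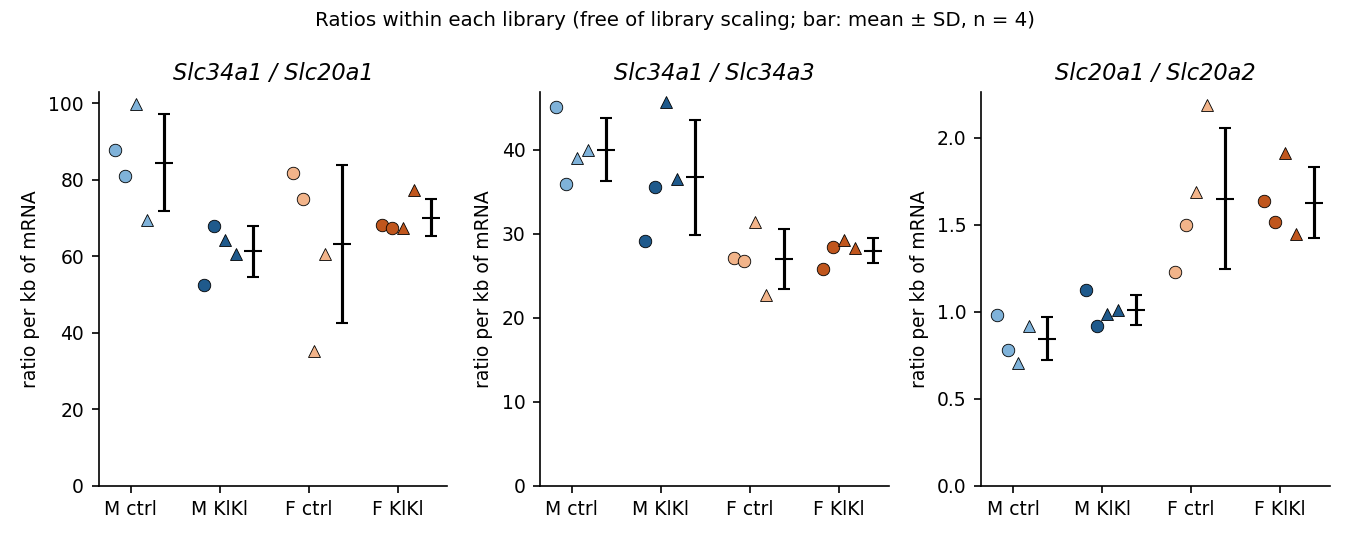
Ratios of 2 transcripts within each library, in reads per kb of mRNA (vertical axes from 0), by group; circles are CFK and triangles CFdk names, and bars are mean ± SD, n = 4. Slc34a1 over Slc20a1 is 69.5 to 99.7 in male controls but 52.4 to 68.0 in male KlKl, and Slc20a1 over Slc20a2 is at most 1.12 in male and at least 1.23 in female libraries.

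The second comparison was between the sexes, and here the genes parted. Pth1r, Xpr1 and Slc20a2 were higher in males in both genotypes, Slc34a1 was higher in male than in female controls, and Slc20a1 in male than in female KlKl. For control animals the mean TPM was 16.4 ± 1.98 against 8.21 ± 0.949 for Pth1r, 0.528 ± 0.0526 against 0.239 ± 0.0152 for Xpr1 and 0.408 ± 0.0682 against 0.186 ± 0.0343 for Slc20a2 (males first, SD, n = 4). Slc34a1 averaged 171 ± 25.1 TPM in male and 110 ± 30.7 TPM in female controls. In a whole kidney, fewer cells of a type and less RNA per cell cannot be told apart. Read totals also ran higher in males, and the sample numbers of the libraries repeat by sex. The part of read depth or sequencing run in these differences was not tested.

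In controls the log2 difference, male minus female, was 0.92 ± 0.12 (limma adjusted p = 2.66e-05) for Pth1r and 0.66 ± 0.19 (adjusted p = 0.00924) for Slc34a1. In the second fit it was 0.89 ± 0.09 (adjusted p = 2.42e-05) for Xpr1 and 0.83 ± 0.12 (adjusted p = 0.000227) for Slc20a2. Slc34a3 (0.08, adjusted p = 0.764) and Slc20a1 (0.13, adjusted p = 0.268) did not pass. Thus 4 of 6 genes were higher in males, where 44.3% of all genes were called in that direction (32.5% in the second fit). The shares called in either direction were 52.6% and 38.1%, so a sex call is common in this table, and the count of 4 of 6 says little on its own.

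In KlKl animals the differences were 0.71 ± 0.12 (limma adjusted p = 0.000195) for Pth1r and 0.33 ± 0.10 (adjusted p = 0.0106) for Slc20a1. Xpr1 gave 0.86 ± 0.09 (adjusted p = 3.41e-05) and Slc20a2 0.85 ± 0.12 (adjusted p = 0.000211) in the second fit. Slc34a1 (0.27, adjusted p = 0.252) and Slc34a3 (-0.10, adjusted p = 0.698) did not pass. Again 4 of 6 were higher in males, beside 50.9% of all genes (37.4% in the second fit), and 54.7% and 39.6% were called in either direction. That Slc34a1 passed in controls and Slc20a1 in KlKl does not show that either sex difference depends on genotype.

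Scaling decided some of these calls. With median-ratio scaling Pth1r (0.55, limma adjusted p = 0.000641), Xpr1 (0.58, adjusted p = 0.000213) and Slc20a2 (0.54, adjusted p = 0.00095) remained higher in male controls. Slc34a1 did not (0.26, adjusted p = 0.149), and its call also ended without the wild-type male controls (0.53, adjusted p = 0.121). In KlKl animals Xpr1 (0.47, adjusted p = 0.00166) and Slc20a2 (0.48, adjusted p = 0.00378) kept their calls, while Pth1r (0.26, adjusted p = 0.0561) and Slc20a1 (-0.01, adjusted p = 0.921) lost them; with voom Pth1r gave 0.31 (adjusted p = 0.0643). Slc34a3 became lower in male than in female KlKl (-0.52, adjusted p = 0.0233), at 6.03 ± 0.742 against 9.05 ± 0.624 scaled TPM (SD, n = 4) and without overlap. After that scaling 24.5% of genes were called higher and 23.9% lower in male controls. Between KlKl animals the shares were 18.9% and 17.3%, in place of the mostly male-high split above. In the second fit, which gives Xpr1 and Slc20a2, these shares were 16.9% and 17.2% in controls and 11.8% and 10.5% in KlKl.

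**Figure D3:**
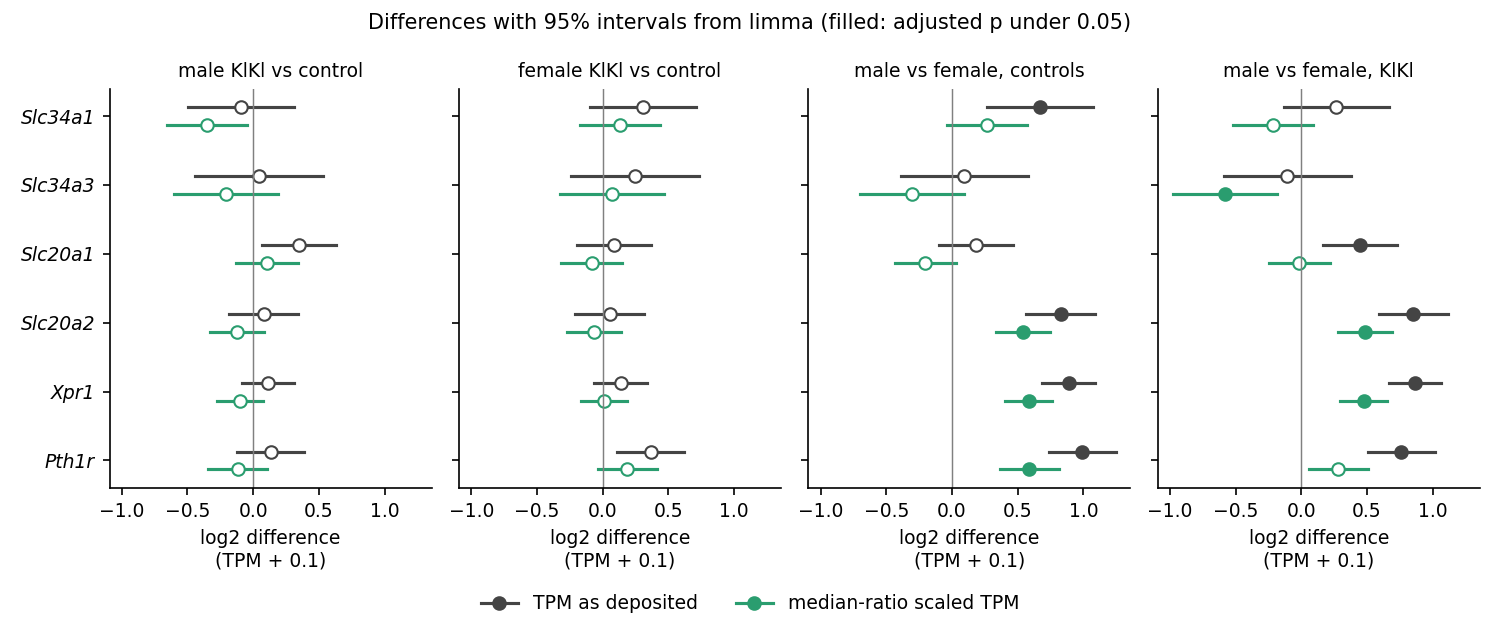
Log2 differences (horizontal axes, from TPM + 0.1, fitted with limma over 18273 genes) with 95% intervals for the 6 genes in 4 contrasts; dark is TPM as deposited, green is median-ratio scaled TPM, and filled points have an adjusted p under 0.05. No filled point appears in the KlKl contrasts, while Xpr1 and Slc20a2 are filled on both scales in both sex contrasts.

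The sex differences were also read within each name series. In controls the log2 ratio of mean TPM, male over female, was 0.84 within CFK and 1.16 within CFdk for Pth1r, 0.96 and 1.33 for Xpr1, and 0.74 and 1.51 for Slc20a2. Slc34a1 gave 0.23 and 1.08, so its control difference came mostly from the CFdk libraries, among them female control 3 and both wild-type males. Without female control 3 the Slc34a1 difference was 0.44 with a limma adjusted p of 0.016. In KlKl animals Pth1r gave 0.88 and 0.66, Xpr1 1.25 and 0.92, Slc20a2 1.07 and 1.24, and Slc20a1 0.45 and 0.49.

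Gene length moved with the sex difference across the table. In scaled values the median difference of protein-coding genes in controls was -0.278 for spans under 5 kb (1751 genes), -0.0885 for 5 to 20 kb, 0.0387 for 20 to 50 kb, 0.0906 for 50 to 100 kb and 0.0928 for 100 kb or more (933 genes). Within its own span class Xpr1 was above 92.4% of genes, Pth1r above 89.8% and Slc20a2 above 89.6%, whereas Slc34a1 was above 77.9%, Slc20a1 above 38.9% and Slc34a3 above 30.5%. In KlKl animals the shares were 90.2% for Xpr1, 88.8% for Slc20a2 and 75.5% for Pth1r, and 8% for Slc34a3. The part of span in the differences was not tested beyond these placements.

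**Figure D4:**
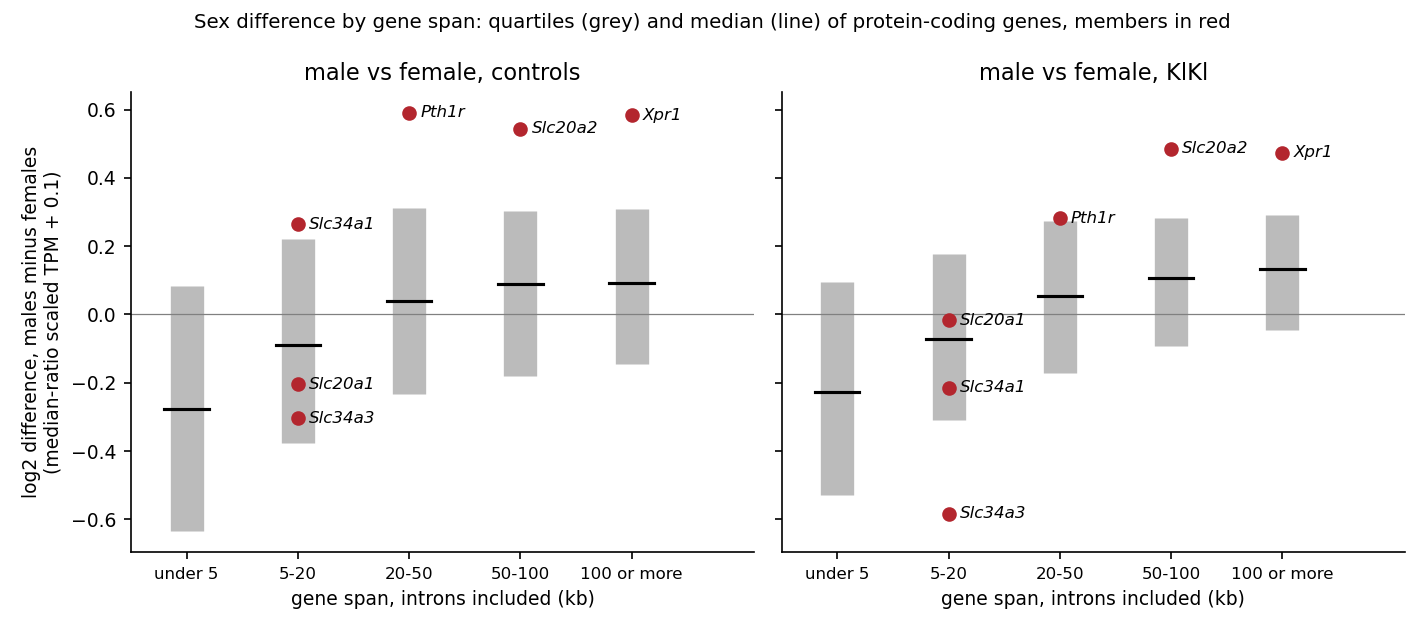
Log2 difference, males minus females (vertical axis, median-ratio scaled TPM + 0.1), of protein-coding genes by gene span in kb; grey bars are quartiles, black lines medians, and red points the 6 genes. Xpr1, Slc20a2 and Pth1r lie above the upper quartile of their span class in both panels, and Slc34a3 lies below the lower quartile in KlKl.

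Cell type markers differed between the groups as well. Late proximal tubule markers, summed over 6 genes, were 102 to 122 TPM in male and 24.2 to 51.2 TPM in female controls, without overlap, and 49.6 to 144 and 24.1 to 38.7 TPM in male and female KlKl. The early proximal tubule sum was 144 to 208 TPM in male and 75.5 to 156 TPM in female controls. Tubule injury markers, 7 genes, were 88.0 to 138 TPM in male controls, 145 to 304 TPM in male KlKl, 196 to 276 TPM in female controls and 291 to 321 TPM in female KlKl. Erythrocyte genes, summed over 4, were 11.0 to 142 TPM in male controls and 96.0 to 479 TPM in male KlKl, and 3.30 to 114 and 16.5 to 58.0 TPM in the female groups. Their median log2 difference was 1.97 between male KlKl and controls, where 0 of 4 were called. Between KlKl sexes it was 2.37 and 3 of 4 were called higher in males, beside 50.9% of all genes. That count was 1 of 4 in the second fit, 0 in the second fit after median-ratio scaling and 0 with voom. Between male KlKl and controls the medians were 0.46 for 5 thick limb and distal genes and 0.431 for 5 macrophage genes. Tubule injury genes, 5 in the fit, had 0.705, and 7 early proximal tubule genes 0.162, beside 0.18 for all genes. The median of 5 late proximal tubule genes was -0.561, with 2 of 5 above 0. In each of these sets 0 were called. The part of these markers in the results for the 6 genes was not tested.

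Genes with the most similar course over the 16 libraries were sought among 1777 abundant protein-coding genes in scaled values. Xpr1 ran closest to Cyp4b1 (Pearson r = 0.973), Psap (0.972) and Slc7a13 (0.97), the last a late proximal tubule transporter. Slc20a2 ran closest to Coasy (0.958), Lman2 (0.955) and Tm9sf1 (0.955), and Pth1r to Slc16a13 (0.887), Sqstm1 (0.884) and Tst (0.881). Slc34a1 was nearest to the mitochondrial genes mt-Nd4 (0.823) and mt-Nd5 (0.81) and to Csnk2b (0.803). By rank these values were lower (Spearman rho = 0.641, 0.574 and 0.665). Female control 3 had the lowest Slc34a1 and, at 30.7% of TPM, the lowest mitochondrial share, and its part was not tested. Slc34a3 was nearest to Ccdc124 (0.903), mt-Nd6 (0.897) and Slc3a2 (0.889), and Slc20a1 to Nme3 (0.816), Hmgn2 (0.791) and Ppp1cc (0.781). Among the 6, Xpr1 and Slc20a2 stood at r = 0.907, Xpr1 and Pth1r at 0.851 and Slc20a2 and Pth1r at 0.835, whereas Slc34a1 and Slc34a3 stood at 0.523. The libraries fall into 2 sexes and share depth and scaling, so these values are descriptions.

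Other genes of phosphate handling were read from a list of 21 transporters, scaffolds and regulators, all in the table, of which 19 passed the 0.1 TPM filter. None was called for KlKl against control in either sex, and the median difference was 0.223 in males and 0.148 in females, beside 0.226 and 0.139 for all genes. Slc17a2 was under 0.1 TPM in every male library and passed the filter through females alone, so it is left out of the counts between the sexes. Of the other 18 genes, 8 were higher and 1 lower in male controls, where 32.5% of all genes were called higher and 5.52% lower. In KlKl 8 were higher and 0 lower, beside 37.4% and 2.2% of all genes. The medians over the 19 genes, which still include Slc17a2, were 0.321 and 0.311, beside 0.282 and 0.371 for all genes. After median-ratio scaling 6 were higher and 2 lower in controls, beside 16.9% and 17.2% of all genes. In KlKl it was 3 and 2, beside 11.8% and 10.5%.

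The most abundant members included scaffolds and an organic anion transporter of the brush border. Slc9a3r1 (Nherf1), a scaffold that holds Slc34a1 in the membrane, was 14.7 ± 1.21 TPM in male and 7.71 ± 1.73 TPM in female controls (SD, n = 4). Its log2 difference was 0.94 ± 0.17 (limma adjusted p = 0.00067) in controls and 1.13 ± 0.17 (adjusted p = 0.000228) in KlKl, and 0.54 and 0.65 after scaling, when both still passed. Pdzk1, a second scaffold, gave 0.88 ± 0.16 (adjusted p = 0.00101) and 0.68 ± 0.16 (adjusted p = 0.00498), the latter not passing after scaling (0.20, adjusted p = 0.309). Slc17a3 gave 1.88 ± 0.46 (adjusted p = 0.00572) and 1.85 ± 0.46 (adjusted p = 0.00603), the latter not passing after scaling (1.38, adjusted p = 0.0531). Pdzk1ip1 was the most abundant and lower in male controls, with -0.36 ± 0.13 (adjusted p = 0.0399); in KlKl it gave -0.18 (adjusted p = 0.274) and passed only after scaling (-0.66, adjusted p = 0.00101).

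A further 2 were singled out after their values were seen. Kidins220, whose protein binds Xpr1, was 2.24 ± 0.0611 TPM in male and 1.05 ± 0.172 TPM in female controls, a log2 difference of 1.04 ± 0.12 (limma adjusted p = 4.52e-05), and 0.99 ± 0.12 (adjusted p = 7.1e-05) in KlKl. It stayed called after scaling, at 0.66 and 0.53. Slc17a2, which passed the filter through females alone, had 0.0125 ± 0.00598 TPM in male and 0.325 ± 0.157 TPM in female controls, given as levels with no test.

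The list of parathyroid hormone signalling held 27 genes, of which 16 passed the filter; the ligand Pthlh and the receptor Pth2r were among those below it. None was called for KlKl against control, with medians of 0.298 in males and 0.123 in females, beside 0.226 and 0.139 for all genes. For sex 5 were higher and 0 lower in male controls, and 6 higher and 0 lower in male KlKl, against the 32.5% and 37.4% of all genes called higher, so these counts are near the background. After scaling this became 1 higher and 4 lower in controls, beside 16.9% and 17.2% of all genes. In KlKl it became 1 and 1, beside 11.8% and 10.5%. Counts this small in 16 genes say little on their own. The most abundant members did not pass between the sexes on either scale or passed on 1 only. Prkar1a, a regulatory subunit of protein kinase A, was 8.51 ± 1.22 TPM in male and 7.25 ± 1.01 TPM in female controls, and Gnas, the stimulatory G protein of the receptor, 6.56 ± 0.463 and 5.97 ± 1.18 TPM. Rgs2, an inhibitor of Gq signalling, passed only after scaling, lower in male controls with -0.96 ± 0.27 (adjusted p = 0.0136). Adcy6, an adenylyl cyclase, was 3.87 ± 0.371 TPM in male and 3.26 ± 1.19 TPM in female controls.

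**Figure D5:**
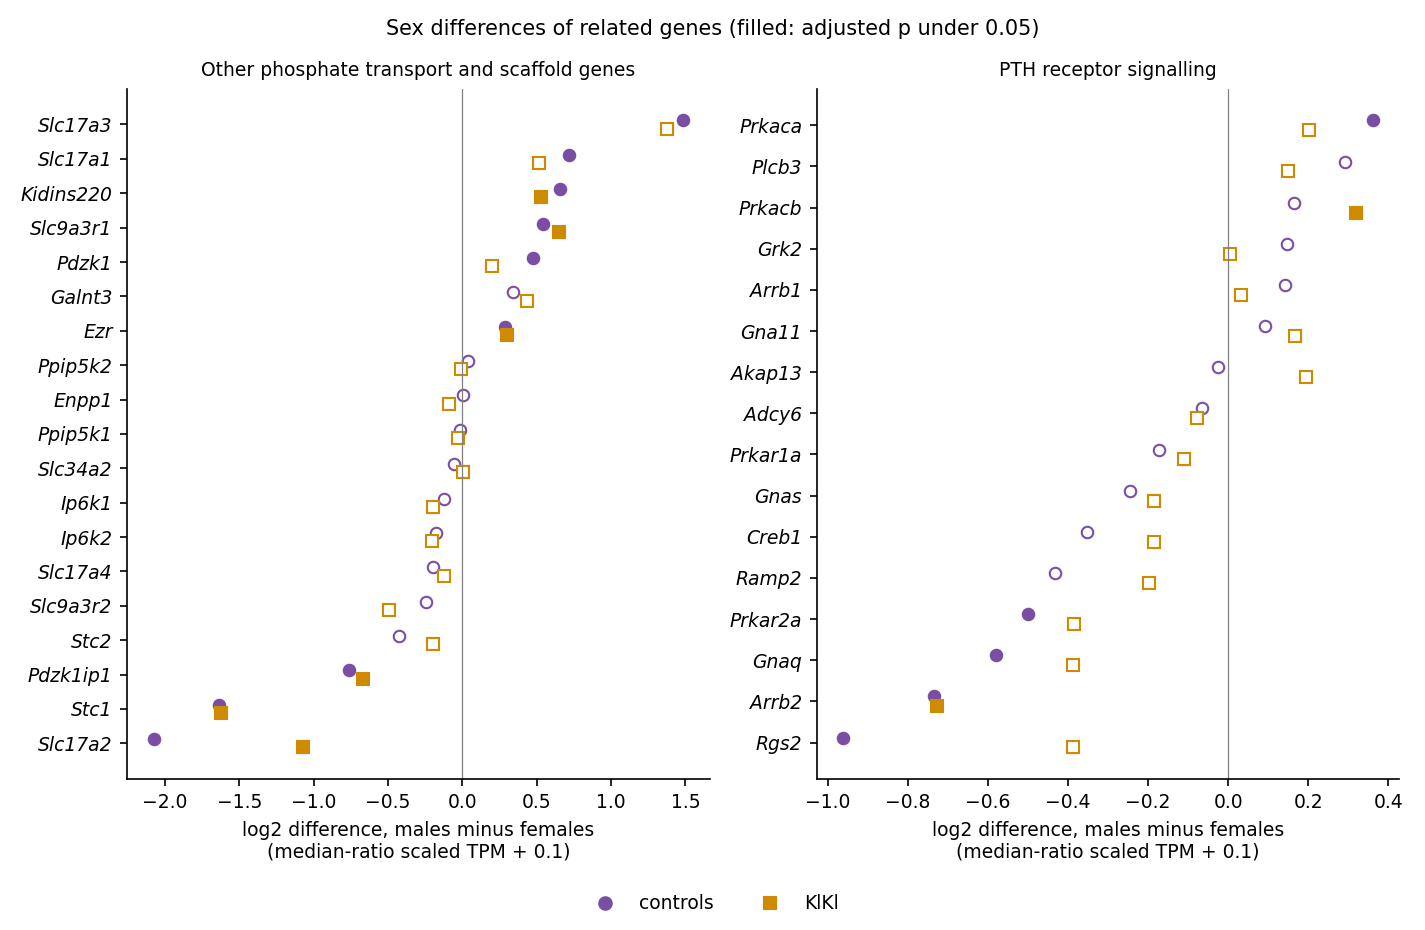
Log2 difference, males minus females (horizontal axes, median-ratio scaled TPM + 0.1, limma), of the phosphate list (left) and the parathyroid hormone signalling list (right); circles are controls, squares KlKl, and filled symbols have an adjusted p under 0.05. In controls 6 phosphate genes are filled to the right and 2 to the left. Slc17a2 is drawn but not counted, and its fill is no test, because it passed the filter through females alone. Among signalling genes 1 is filled to the right and 4 to the left. Of all genes 16.9% were called higher and 17.2% lower in male controls on this scale.

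Of 11 genes of the hormones that govern phosphate, 10 were tested and Kl alone was called for KlKl against control, by -3.48 ± 0.42 in males (limma adjusted p = 0.0108) and -3.79 ± 0.42 in females (adjusted p = 0.00206). Cyp24a1, which inactivates vitamin D, was 4.52 ± 1.31 TPM in male controls beside 48.8 ± 31.7 TPM in male KlKl, with 4.48 to 76.9 TPM in the latter. It was 1.70 ± 0.897 and 8.26 ± 1.81 TPM in females, without a call in either sex (adjusted p = 0.199 and 0.745). Cyp27b1, which activates vitamin D, was 1.44 ± 0.587 and 6.99 ± 4.73 TPM in males and likewise had no call (adjusted p = 0.206). Vdr, the vitamin D receptor, was higher in male than in female controls by 0.88 ± 0.18 on the log2 scale (adjusted p = 0.00151).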

How the data were processed

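Polyadenylated RNA of 16 kidneys was sequenced. The authors deposited 1 table of TPM; Partek and the build mm39 are named in the submitters' processing notes. Aligner, counting rule and annotation: not given in the sources used here. By its name every column belonged to 1 library, and 0 columns were of other samples. Reads were recovered by taking each TPM as reads plus 0.0001 over the gene's span with introns, scaled to about 309450 per library; no source used here states this. Of values under 20 reads, 81.2% then came out whole within 0.1, so the recovered reads are estimates.

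The 8059 genes reaching 1 TPM in 4 or more of the 16 libraries were fitted as log2(TPM + 1), which understates the change of low genes, with limma 3.58.1 in R 4.3.3: 1 mean per group, mean-variance trend, Benjamini-Hochberg adjustment over all genes within a contrast, threshold 0.05. Slc34a1, Slc34a3, Slc20a1 and Pth1r pass that filter. Slc20a2 and Xpr1, and the phosphate, parathyroid hormone signalling and hormone lists, were read from a fit with filter and pseudocount 0.1 (18273 genes). The log2 differences of the cell type markers are from the fit of 8059 genes unless another is named. The 4 groups follow the labels, with wild-type and heterozygous animals as 1 control group. Nothing says that replicates are more than separate animals of a group, so p-values measure the spread between these samples; replicates differed by more than counting error (chi-square per degree of freedom 6.21 to 116).

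The members and lists were chosen with earlier results of these data known. By rule the 6 genes are named whatever their values, and of each list those called for KlKl and up to 4 of the highest mean TPM; likeness names the 3 highest correlations. The mRNA lengths came from GENCODE M21 (GRCm38) by gene ID. The fit was also run on simulated data with the same relative spread for all genes and differences added in male KlKl alone. These data held no sex difference, so they do not bear on the sex contrasts. Alternatives covered pseudocount, filter, median-ratio scaling, limma voom on recovered reads (10 reads or more, 17480 genes), age, replicate block, wild-type controls and each library left out. Chosen after seeing the data: omission of the pair female control 3 and male KlKl 3, library scaling by nuclear protein-coding genes, and the lower filter with scaling.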

Additional observations from a re-analysis of the deposited data

Results flagged for a closer look

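In 24 groups of 4 libraries, 3 held a library far from the other 3 in relation to the group's range; chance gives about 1 in 20. In female controls Slc34a3 was 3.72 TPM in replicate 3, below 8.39 to 8.70 TPM in the others. That library also had the lowest Slc34a1, 67.0 TPM, and 15.2% of its TPM in ribosomal RNA. In female KlKl Slc34a3 was 9.49 TPM in replicate 1, above 7.77 to 7.95 TPM in the others. In male KlKl Pth1r was 15.2 TPM in replicate 4, the animal aged 59 days, below 18.6 to 19.2 TPM in the others.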

How the results depend on the processing

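The count of the 6 genes called was 0 in each KlKl contrast and 4 in each sex contrast on leaving out any 1 library. The sex calls did change with median-ratio scaling and with voom. In both, Slc34a1 lost its call in controls, and Pth1r and Slc20a1 lost theirs in KlKl. Slc34a3 gained a call in KlKl, lower in males. The number of all genes called varied more. For male KlKl against control (8 genes) it was 3 with a pseudocount of 0.1, 2 with a filter of 0.1 TPM, 4 with both, 2 with median-ratio scaling, 2 with scaling, filter and pseudocount of 0.1, 3 with scaling on nuclear protein-coding genes, 2 without wild-type controls, 909 with age as a covariate, 24 without female control 3 and male KlKl 3, and 2 to 15 without 1 library (15 without female control 3). For females (1 gene) it was 2 with a filter of 0.1 TPM, with or without the lower pseudocount, 2 with voom, 2 without both libraries, 5 with the lower filter and scaling, and 1 to 2 without 1 library. The mean effect (3 genes) gave 1407 with age, 12 without both libraries and 2 to 10 without 1. The interaction (0 genes) gave 1 without both libraries and 0 to 2 without 1. For sex in controls (4236 genes) the counts were 6547 with a filter of 0.1 TPM, 6955 with the pseudocount too, 6956 with voom, 2211 without wild-type controls and 3542 to 4379 without 1 library. For sex in KlKl (4406 genes) they were 7549, 7228, 2917 with median-ratio scaling, 2883 with scaling on nuclear protein-coding genes, and 3742 to 4839 without 1 library.

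Directions turned as follows, in log2 units, in the order median-ratio scaling, voom, scaling on nuclear protein-coding genes, and scaling with the lower filter. For male KlKl against control these were -0.18, -0.25, -0.12 and -0.21 for Slc34a3, -0.12, -0.19, -0.066 and -0.12 for Slc20a2, -0.10, -0.16, -0.042 and -0.10 for Xpr1, and -0.11, -0.16, -0.045 and -0.12 for Pth1r. For sex in controls they were -0.28, -0.25, -0.17 and -0.30 for Slc34a3 and -0.15, -0.13, -0.057 and -0.20 for Slc20a1. For sex in KlKl they were -0.21, -0.19, -0.12 and -0.22 for Slc34a1. Without the third setting, female KlKl against control gave -0.064, -0.073 and -0.083 for Slc20a1 and -0.063, -0.084 and -0.063 for Slc20a2. Slc20a1 between the sexes in KlKl was -0.012 with median-ratio scaling and -0.016 with the lower filter too, and its mean effect -0.0024 with voom. Slc34a1 in males was 0.065 with age and 0.045 without wild-type controls. Slc34a3 between control sexes was -0.063 with age, -0.059 without wild-type controls and -0.18 without both libraries, and in females -0.041 without both. Without 1 library, ranges that crossed 0 were -0.053 to 0.11 (Slc34a3, males), -0.041 to 0.31 (Slc34a3, females), -0.032 to 0.11 (Slc20a2, females) and -0.18 to 0.17 (Slc34a3, sex in controls). The cause was not tested.

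Replicate numbers did not pair the samples: of 24 same-numbered pairs, 5 had correlated deviations over 0.1 (-0.222 to 0.219). With the replicate block the 8 sex calls of the 6 genes passed again, Pth1r in controls at 0.92 (limma adjusted p = 8.45e-05) and Slc34a1 at 0.66 (adjusted p = 0.017).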
